A study of Mus musculus with 8 samples.

Results

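The transcript described here is that of Ttn, the gene of titin, as it appears in iCLIP of SRSF3-GFP from mouse neonatal cardiomyocytes. Its members are the nucleotide positions on the minus strand of chromosome 2 from 76.54 to 76.825 Mb (mm9), 285 kb read from the 5′ end at the high coordinate to the 3′ end at the low one. They number 9539 of the 769652 positions of replicate 1, 22659 of the 2093525 of replicate 2, and 34250 of the 3846902 of the merged track. The interval was chosen by its measured signal, with earlier results of these tracks known, so its level, its peaks and its gaps are a description and are not tested. The only tests are of differences between libraries, window by window.

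The series holds 8 mouse samples of the C57BL/6 strain in 3 groups. SRSF3flox/flox;alphaMHC-CreERT2 adults, in which the Cre is driven by a cardiomyocyte promoter (3 hearts), and adults with alphaMHC-CreERT2 alone (3 hearts) all received 3 injections of 1 mg 4-hydroxytamoxifen, and these 6 hearts are not analysed here. The iCLIP group has 2 replicates of cardiomyocytes taken at P0 or P1 with no floxed allele or Cre given in the labels, made to express SRSF3-GFP from 15 µg of transfected modified mRNA and irradiated with UV light 48 h later. The tagged protein thus comes on top of the cells' own SRSF3. Whether the replicates came from separate cultures is not stated, so SDs and p-values between them measure only the spread between these libraries, which may be technical. The headers of both tracks carry the same library identifier and the replicate number 1, with experiment numbers 1 and 2, and the replicates are told apart here by their sample titles.

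Titin is the giant elastic protein of the sarcomere, running from the Z-disc to the M-band and setting the passive stiffness of heart muscle. Its pre-mRNA is among the most heavily alternatively spliced in the heart, and the exons of its spring region are skipped more often as the heart matures after birth, under control of the splicing factor RBM20. SRSF3 is a small SR protein that binds RNA and acts in splicing, 3′ end processing and mRNA export. In iCLIP each cDNA ends next to the nucleotide that was crosslinked to the protein, so a cDNA count per position maps contacts along the RNA. No control immunoprecipitation and no measure of Ttn RNA in these cells is among the data analysed here, so contact by SRSF3 and abundance of the RNA cannot be told apart in any level below. Genes of other cell types were not placed on these mm9 tracks, so the purity of the culture was not examined.

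Gene models in mm9 were not used here, and so exons and introns could not be placed on the tracks. In GENCODE M21, which is on GRCm38, Ttn spans 278.6 kb. Its longest annotated transcript has 347 exons and 106.8 kb, its longest exon is 17.1 kb, and 41.9% of the gene is exonic in at least 1 of 25 transcripts. The dense signal on the tracks ran from 76542001, the lowest 1 kb bin with at least 100 cDNAs in the merged track, to 76820559, the highest position of replicate 1. That span is 278559 nt long, against 278568 nt for the annotated gene on the other build. Within the interval, cDNAs of replicate 2 and of the merged track ran from 76540002 to 76821046. The 2 limits of the span follow different rules, and the lower is the edge of a 1 kb bin. The closeness of the 2 lengths therefore carries no weight for the label. The limits of the span were set after the profile was seen.

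The coding sequence of Ttn was searched for 2 motifs linked to SRSF3, since that needs no position on mm9. CNNC (C, any 2 letters, C) occurred 57.0 times per kb of the 105.6 kb coding sequence, against a median of 74.5 per kb over the longest coding sequences of 12737 other mouse genes of at least 1000 nt, and 24.2% of those genes had less. WCWWC, where W is A or T, occurred 7.46 times per kb, against a median of 9.55, and 24.4% of the genes had less. Overlapping matches were counted, on the mRNA strand only, and every WCWWC match also holds a CNNC match. Ttn thus stood near the lower quartile of mouse genes for both, with 788 WCWWC matches in all. Its coding sequence was 30.9% A and 22.9% C, against medians of 25.6% and 25.9%. A 60 nt stretch rich in WCWWC, bases 2499 to 2558 of the coding sequence of the longest transcript (chromosome 2, minus strand, GENCODE M21), is shown to give the letters that are being counted, with the 4 matches, 3 of which overlap, in capitals.
Ttn coding stretch: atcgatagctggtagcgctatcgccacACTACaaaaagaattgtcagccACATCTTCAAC
A match is a description of the letters and not a bound site, and no cDNA was placed on this stretch.

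Ttn took just over 1% of each replicate library. It held 10467 of the 815414 cDNAs of replicate 1, or 1.28% (Wilson 95% interval 1.26% to 1.31%), and 27445 of the 2253688 cDNAs of replicate 2, or 1.22% (1.20% to 1.23%). Scaled to 1000000 cDNAs in a library (CPM), replicate 1 had 45.0 CPM per kb of the interval and replicate 2 had 42.7, a mean of 43.9 ± 1.63 CPM per kb (SD, n = 2). Intervals cover counting error only. The log2 ratio of replicate 1 to replicate 2 was 0.08, with a 95% interval of 0.04 to 0.11 from counting error, given as a description. With each listed position counted once, this log2 ratio was 0.20.

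When both strands of the genome were cut into tiles of 285 kb on a grid that holds the interval, the Ttn tile ranked 2 of the 17877 nuclear tiles with a cDNA in either replicate, and it did so in both replicates. It held 12836 CPM in replicate 1 and 12178 in replicate 2, against 21858 and 19960 in the tile above it, 8549 and 6744 in the tile below it, and medians of 6.13 and 7.10 over all tiles. The signal was drawn out along the gene rather than gathered at a site. Of 237938 windows of 10 kb, the 2379 (1%) with the highest CPM in the lower of the replicates included 28 of the 29 windows of Ttn. The exception was the window at the 5′ edge, ranked over its full 10 kb, of which 5 kb lie beyond the interval. The best rank of any of the 29 was 12. On the opposite strand of the interval replicate 1 had 12 cDNAs and replicate 2 had 53, so that 99.9% and 99.8% of the cDNAs lay on the strand of Ttn.

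**Figure D1:**
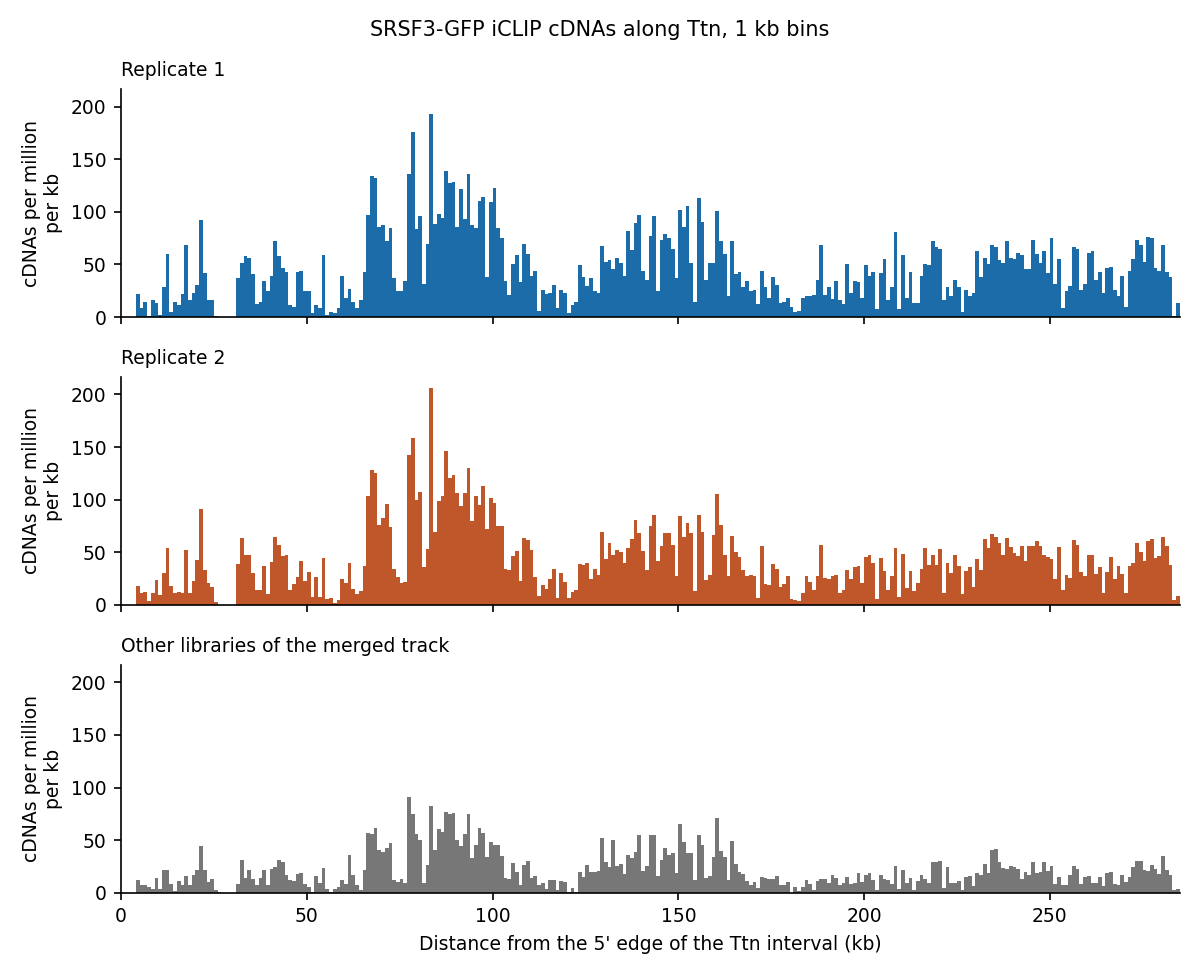
CPM per kb in 1 kb bins along the Ttn interval, from its 5′ edge on the left to its 3′ edge on the right, in replicate 1, replicate 2 and the other libraries of the merged track, on 1 common axis. The highest bin reaches 192.5 in replicate 1 and 206.3 in replicate 2 about 83.5 kb from the 5′ edge, and an empty stretch lies near 30 kb in all 3 panels.

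Along the 285 kb the signal did not decline steadily from 5′ to 3′ but stood higher and lower in broad blocks, as the plot of 1 kb bins shows. The 142.5 kb at the 5′ side (from 76682501 to the 5′ edge) held 52.1% of the Ttn cDNAs in replicate 1 and 53.7% in replicate 2. The other 142.5 kb held 47.9% (Wilson 95% interval 46.9% to 48.8%) and 46.3% (45.7% to 46.9%). The blocks that follow were drawn after the profile was seen.

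Apart from 1 cDNA of replicate 2 further 5′, the signal opened at its 5′ end with a small cluster. The start of the transcript itself was not placed on these tracks. The 200 nt from 76820401 to 76820600 held 13 cDNAs in replicate 1 and 33 in replicate 2, more than the 9 and 21 of the following 1000 nt. Upstream of 76821000 there were 0 cDNAs in replicate 1 and 1 in replicate 2 as far as the edge of the interval, and the next 20 kb held 1 and 5. The 20 kb beyond that, from 76845001 to 76865000, held 43 minus-strand cDNAs in replicate 1 and 128 in replicate 2. Where in this stretch the signal began again was not located. The protein-coding neighbours of Ttn in GENCODE M21 are Ccdc141 on the 5′ side, also on the minus strand, and Plekha3 on the 3′ side, on the plus strand, and no cDNA was assigned to either here.

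The first 61 kb of the signal, from 76821000 down to 76760001, was sparse. Its density was 24.5 CPM per kb (replicate 1) and 24.1 (replicate 2), a mean of 24.3 ± 0.29 (SD, n = 2). With 21.4% of the length it had 11.6% and 12.1% of their Ttn cDNAs. Within it the 10 kb windows from 76780001 and 76800001 stood highest, with 37.4 ± 1.56 and 32.7 ± 1.48 CPM per kb, and the one from 76760001 lowest, with 14.3 ± 0.043 (SD, n = 2).

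The next 45 kb, from 76760000 down to 76715001, was the densest part of Ttn. Its density was 86.8 CPM per kb (replicate 1) and 85.6 (replicate 2), a mean of 86.2 ± 0.85 (SD, n = 2). On 15.8% of the length lay 30.4% of the Ttn cDNAs in replicate 1 (Wilson 95% interval 29.6% to 31.3%) and 31.6% in replicate 2 (31.1% to 32.2%). Its highest 10 kb window started at 76730001 and had 906 cDNAs in replicate 1 and 2499 in replicate 2, or 111.1 and 110.9 CPM per kb. The windows beside it, from 76740001, 76720001 and 76750001, had 92.4 ± 1.08, 79.6 ± 0.34 and 79.0 ± 1.02 CPM per kb (SD, n = 2).

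All 10 bins of 1 kb with the highest CPM in the lower replicate lay in that block, and the interval's order of bins was much the same in both libraries. The bin from 76741001 led with 157 cDNAs in replicate 1 and 465 in replicate 2, 199.4 ± 9.75 CPM (SD, n = 2). The bin from 76746001 followed with 143 and 358 cDNAs and 167.1 ± 11.7 CPM, and its neighbour from 76747001 had 111 and 322 cDNAs and 139.5 ± 4.77 CPM. The tenth, from 76727001, had 93 and 254 cDNAs and 113.4 ± 0.95 CPM, and the next below it, from 76725001, had 89 and 228. The median over the 285 bins was 39.2 CPM in replicate 1 and 37.3 in replicate 2.

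Past the dense block the signal was lower and then higher again. The 15 kb from 76715000 down to 76700001 held 298 cDNAs in replicate 1 and 783 in replicate 2, or 24.4 and 23.2 CPM per kb. The following 45 kb, down to 76655001, held 58.1 and 53.6, a mean of 55.8 ± 3.24 CPM per kb (SD, n = 2), with 20.4% and 19.8% of the Ttn cDNAs. A second low followed: the 60 kb down to 76595001 held 29.9 and 28.3 CPM per kb, and its lowest 10 kb window, from 76640001, had 142 and 424 cDNAs.

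The last 55 kb, down to the 3′ edge of the interval, held 2169 cDNAs in replicate 1 and 5405 in replicate 2, or 48.4 and 43.6 CPM per kb (mean 46.0 ± 3.36, SD, n = 2), with 20.7% and 19.7% of the Ttn cDNAs. Its 10 kb windows lay between 39.8 ± 4.52 CPM per kb from 76550001 and 55.3 ± 1.97 from 76580001 (SD, n = 2).

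At the 3′ end the signal ended within about 1 kb, with a thin tail beyond. The bins from 76544001, 76543001 and 76542001 had 56, 35 and 31 cDNAs in replicate 1 and 146, 126 and 85 in replicate 2. The next bin, from 76541001, had 1 and 10, and the last of the interval had 11 and 20. The 5 kb beyond the interval, from 76540000 down to 76535001, held 5 and 15 cDNAs, or 1.23 and 1.33 CPM per kb, against 32.9 and 34.3 in the last 5 kb inside it.

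Long empty stretches were few, and 1 inside the transcript stood apart in length. Of the 5700 tiles of 50 nt, 869 had no cDNA in the merged track, 44 gaps reached 200 nt and 5 reached 500 nt. Between 76793401 and 76798901, 5501 nt, the merged track listed no cDNA on either strand. The mean density of the interval would put 866 on the minus strand. The first 61 kb, where this stretch lies, had 21.1 CPM per kb in the merged track, against 37.4 over the interval. Its own density would thus put fewer there. The 0 in the empty stretch limits the level to 0.669 CPM per kb (replicate 1) and 0.242 (replicate 2). On the 3′ side the signal was back at once, with 70 cDNAs in replicate 1 and 219 in replicate 2 in the first 1000 nt. On the 5′ side it thinned out first. A single cDNA of the merged track stood at 76798902, a further 680 nt were empty, and the next 2000 nt held 23 and 70. Whether reads from this stretch could be mapped to it uniquely was not tested.

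The second longest gap, 3954 nt from 76821047, lay at the 5′ edge of the interval, outside the covered span. The remaining gaps inside the transcript were much shorter. Past the 680 nt already given, 664 nt from 76670498 to 76671161 and 659 nt from 76666721 to 76667379 were empty, with 251 and 287 merged cDNAs in the 1000 nt on the 3′ and 5′ sides of the first and 200 and 200 beside the second. The median gap between neighbouring positions was 2 nt, and 8 of the 285 bins of 1 kb had no cDNA in either replicate. Of those 8 bins, 5 fell in the longest empty stretch and 3 at the 5′ edge.

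**Figure D2:**
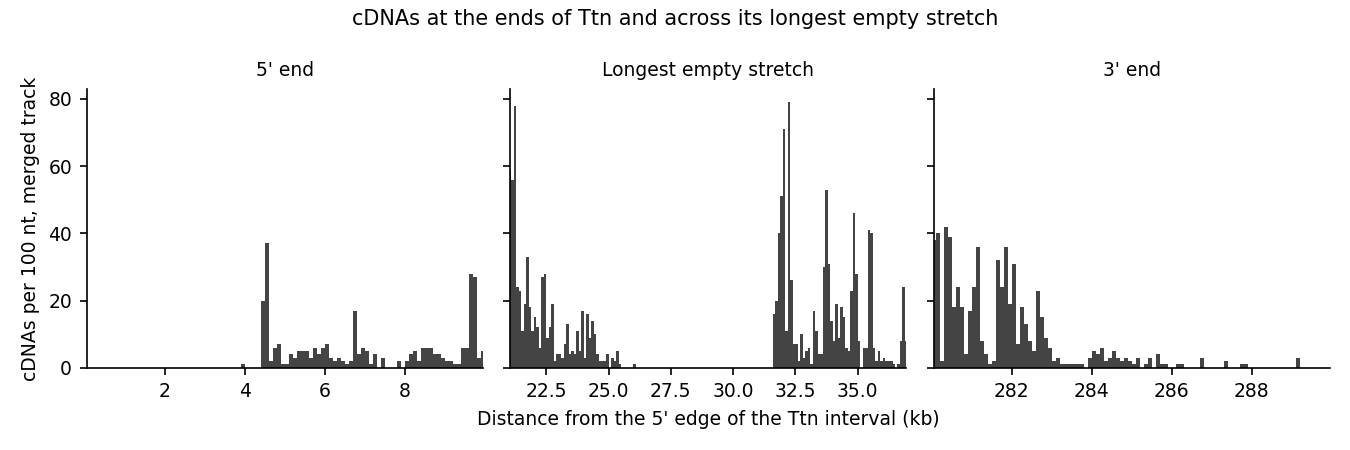
cDNAs of the merged track per 100 nt against distance from the 5′ edge of the Ttn interval in kb, at the 5′ end (left), across the longest empty stretch (middle) and at the 3′ end (right), on 1 common axis. The bins of the cluster at the 5′ end of the signal hold 37 and 20 cDNAs. The empty stretch of 5501 nt has a sharp 3′ border and a tapering 5′ one, and at the 3′ end the signal gives way to a thin tail.

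At the scale of single sites Ttn had many shallow contacts and few deep ones. In the merged track 12.0% of the nucleotides of the interval were covered. A median 50 nt tile held 1 cDNA in replicate 1 and 3 in replicate 2. The tile with the highest CPM in the lower replicate, from 76741251, held 16 and 45 cDNAs, spread in the merged track over 33 of its 50 nt. The next, from 76747351, held 17 and 41. Of the 10 highest tiles, 8 lay in the dense block. The exceptions were the tile from 76681651, with 22 cDNAs in replicate 1 and 32 in replicate 2, and the one from 76803751 in the sparse first part, with 14 and 32.

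Of the 10 single nucleotides with the most cDNAs in the lower replicate, 5 lay in the dense block and 5 outside it. The tenth place was a tie at 4 cDNAs in each replicate, broken by coordinate. The nucleotide left out, 76708878, lies outside the dense block, so the split depends on that rule. The neighbouring nucleotides 76792771 and 76792772 came first, with 6 cDNAs each in replicate 1 and 12 and 11 in replicate 2. They lie in the sparse first part of the transcript, within the first 1000 nt past the longest empty stretch. The 30 nt around them held 15 cDNAs in replicate 1 and 27 in replicate 2. Next came 76746689, in the dense block, and 76620080, in the late low block, each with 5 cDNAs in replicate 1 and 5 in replicate 2. At 76591209, near the start of the last block, replicate 2 had its highest count in Ttn, 16, and replicate 1 had 4, while none of the other libraries' cDNAs fell there. In all, 11 nucleotides had at least 4 cDNAs in both replicates and 36 had at least 3.

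Positions seen more than once were commoner in Ttn than elsewhere, but very deep ones were not. Positions with at least 2 cDNAs made up 8.47% of the Ttn positions of replicate 1 (Wilson 95% interval 7.93% to 9.05%), against 3.06% (3.02% to 3.10%) in the rest of the genome. In replicate 2 they made up 15.7% (15.2% to 16.2%), against 4.01% (3.98% to 4.03%). The interval was chosen for its high signal, which favours a higher share here, and these shares were not compared at like density. More than 10 cDNAs were found at 0 of 9539 Ttn positions in replicate 1 and at 7 of 22659 in replicate 2. Elsewhere they were found at 544 of 760113 and 2100 of 2070866 positions. The rest of the genome includes the mitochondrial chromosome and unplaced sequences, which were not set apart here. The densest Ttn window, from 76730001, had 1.14 cDNAs per position in replicate 1 and 1.34 in replicate 2. The 3 adjacent minus-strand windows of chromosome 14 with the highest signal there, from 55560001 to 55590000, had 1.36 to 1.51 in replicate 1 and 1.66 to 2.08 in replicate 2. Their levels were 1593 ± 125, 2630 ± 148 and 1486 ± 7.17 CPM, against 1110 ± 1.59 for the Ttn window (SD, n = 2). These windows differ in depth, and the differences were not tested.

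The replicates met at the same nucleotides of Ttn more often than at neighbouring ones. Of the 9539 positions of replicate 1, 2391 were also listed in replicate 2, or 25.1% (Wilson 95% interval 24.2% to 25.9%), against 4.77% (4.73% to 4.82%) in the rest of the genome. The shares were closer in windows of like density. Among 10 kb windows with 502 to 1040 positions in replicate 2, the share was 20.9% (19.7% to 22.1%) in 15 windows of Ttn and 19.5% (18.8% to 20.3%) in 46 others. By depth, 23.2% of the Ttn positions with 1 cDNA recurred, 40.8% of those with 2 and 75.5% of those with 3 or more, against 3.72%, 23.6% and 90.5% elsewhere. Elsewhere again includes the mitochondrial chromosome and unplaced sequences.

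The recurrence was sharp in space. Replicate 2 had a position exactly on a replicate 1 position 2391 times, and on average 1107 times at each distance from 101 to 200 nt, a ratio of 2.16. The ratio was 1.74 at a distance of 1 nt, 1.29 at 5 nt, 1.21 at 10 nt and 1.09 at 50 nt, and it was much alike upstream and downstream. Positions share 1 transcript, so these are counts of positions and not replicates of a condition.

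**Figure D3:**
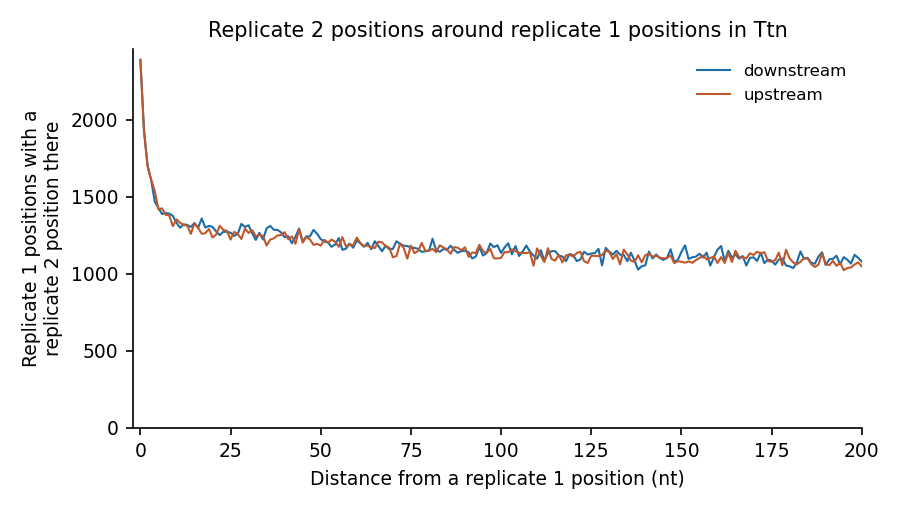
Number of replicate 1 positions in the Ttn interval (vertical axis) that have a replicate 2 position at a given distance in nt (horizontal axis), downstream and upstream along the transcript. The count is 2391 at a distance of 0, declines within about 5 nt and levels off near 1107 beyond 100 nt.

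The shape of the profile was closely repeated between the replicates. Over the 285 bins, Pearson's r was 0.954 on log2(cDNAs + 1) and Spearman's rho 0.947, given as a description, since bins share the library and their neighbours' signal. The 29 bins (10%) that were densest in replicate 2 held 25.5% of the Ttn cDNAs of replicate 1, and the 29 densest in replicate 1 held 25.6% of those of replicate 2. In tests over all windows of the genome with at least 50 cDNAs, none of the 29 Ttn windows of 10 kb differed between the replicates at a false discovery rate of 5% (exact binomial test with Benjamini-Hochberg adjustment), beside 0.0934% of 13920 windows in the genome. At that share a call among 29 windows would be rare, so the absence of calls says little about Ttn. Before adjustment 5 of the 29 (17.2%) had a p under 0.05 (exact binomial test), beside 5.57% of all windows. These shares were not taken at like depth, and greater depth makes a small ratio easier to call.

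The 10 kb windows nearest to the threshold were higher in replicate 1. The window from 76670001 had 561 cDNAs in replicate 1 and 1321 in replicate 2, a log2 ratio of 0.23 (adjusted p = 0.446, exact binomial test). The one from 76610001 had 273 and 602, a log2 ratio of 0.33 (adjusted p = 0.477, exact binomial test). Log2 ratios over the 29 windows ran from -0.18 to 0.33 with a median of 0.07, and 22 of the 29 were above 0. Among the 265 bins of 1 kb with at least 20 cDNAs none differed either, beside 0.105% of 16212 bins in the genome. The bin nearest to the threshold was lower in replicate 1. It had 31 cDNAs in replicate 1 and 162 in replicate 2, a log2 ratio of -0.92 (adjusted p = 0.287, exact binomial test). Of the 265, 25 (9.43%) had an unadjusted p under 0.05, beside 5.16% of all bins (exact binomial test), again not at like depth.

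The merged track adds 3 further libraries to the replicates, and there Ttn was lower. The interval was chosen for its high signal in tracks that include the replicates, which are 1 arm of this comparison, and that choice favours a lower value in the other arm. The values that follow are therefore no independent evidence of the difference. These other libraries, taken as the merged track minus the replicates, held 6956 Ttn cDNAs out of 1138453, or 0.611%, against 1.24% in the replicates together. The log2 ratio of the other libraries to the replicates was -1.02 (95% interval -1.05 to -0.98), a fold of 0.495. The labels used here do not describe these libraries, so a difference in cells, time or protocol cannot be told apart.

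The other libraries were lower in nearly every window of Ttn. Of the 29 windows, 28 were lower at a false discovery rate of 5% (exact binomial test, Benjamini-Hochberg adjustment over 21841 windows), beside 13.4% of the windows of the genome. The exception was the window at the 5′ edge, tested over its full 10 kb, of which 5 kb lie beyond the interval. It had 14 cDNAs in the other libraries and 61 in the replicates, a log2 ratio of -0.69 (adjusted p = 0.248, exact binomial test). That window had the fewest cDNAs of the 29. The share of windows called in Ttn and the 13.4% were not taken at like depth, and greater depth makes a given ratio easier to call. How far depth accounts for the contrast was not tested. The 28 windows also share the lower level of the interval as a whole, so they are not separate findings. Log2 ratios over the 29 windows ran from -1.44 to -0.57, with a median of -1.08, beside a median of -0.12 over the other windows of the genome, of which the middle 90% ran from -1.28 to 1.43.

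The difference was not equally large along the transcript. In the 45 kb from 76700000 down to 76655001 the other libraries held 32.6 CPM per kb, against 54.8 in the replicates together, a log2 ratio of -0.75 (95% interval -0.83 to -0.67). In the densest 45 kb they held 43.5 against 85.9, a log2 ratio of -0.98 (-1.05 to -0.92). In the last 55 kb they held 19.2 against 44.9, a log2 ratio of -1.22 (-1.31 to -1.14), and in the 60 kb before it 12.0 against 28.8, a log2 ratio of -1.26 (-1.37 to -1.15). The lowest ratio was that of the 15 kb from 76715000 down to 76700001, -1.33 (-1.57 to -1.08). In the first 61 kb it was -0.95 (-1.05 to -0.84). The order of the blocks by density was led by the same block in the other libraries as in the replicates, followed by the 45 kb from 76700000. These blocks were drawn after the profile was seen, and the differences between their ratios were not tested.

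**Figure D4:**
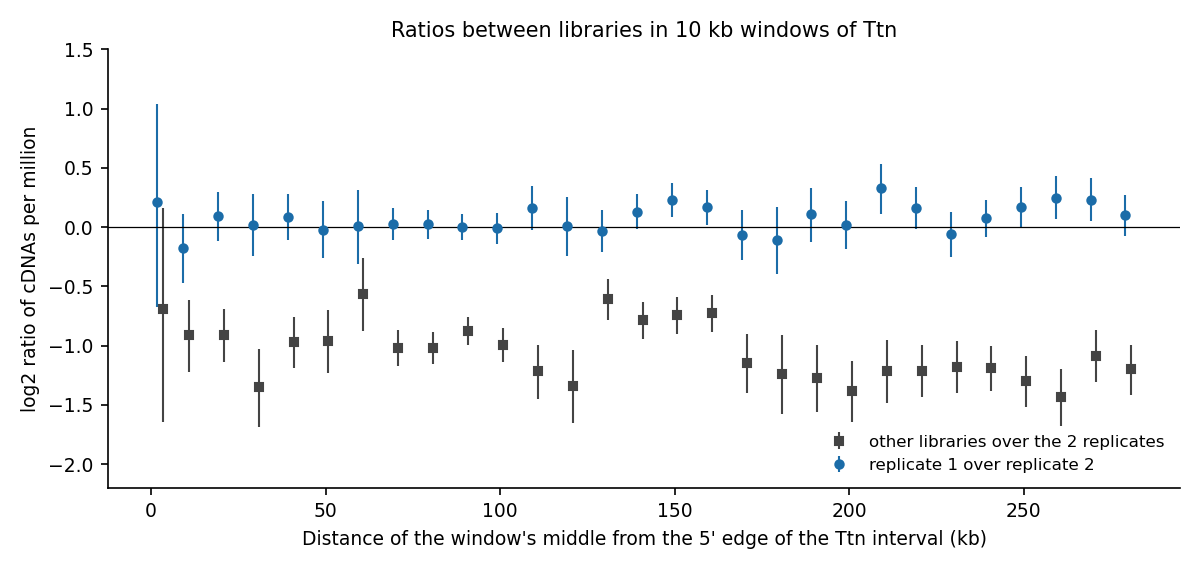
Log2 ratios of CPM in 10 kb windows of Ttn with 95% intervals from counting error, against the distance of the window's middle from the 5′ edge in kb: squares are the other libraries over the 2 replicates together, circles are replicate 1 over replicate 2. The squares lie between -1.44 and -0.57 and the circles between -0.18 and 0.33, and the squares of the 4 windows from 76660001 to 76700000 stand above most of the others.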

How the data were processed

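In the deposited tracks a signed score stands at each nucleotide, its magnitude a cDNA number and a minus sign the minus strand. As deposited, these scores are whole numbers whose totals differ between libraries, and they were read as unscaled. Coordinates are on mm9 with annotation Ensembl 59, per the file headers, and reads were mapped with Bowtie 0.10.1, per the submitters' processing notes. The handling of duplicates and of reads with several matches was not given in the sources used here. The merged track is a sum over 5 libraries, per the file headers.

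The Ttn interval is chromosome 2, 76540001 to 76825000, minus strand. cDNAs were counted per nucleotide, 50 nt tile, 1 kb bin and 10 kb window, and divided by the library total (CPM). Windows with at least 50 cDNAs and bins with at least 20 were compared across the whole genome by two-sided exact binomial tests against the library totals, with Benjamini-Hochberg adjustment at a 5% false discovery rate, using Python 3.11.15 and SciPy 1.17.1. The procedure was checked on simulated data. The limit of a 0 is 3 cDNAs. Named sites were the 10 bins, tiles and nucleotides with the highest value in the lower replicate and the 5 longest gaps. The blocks, the bins at the ends and the stretches beside the gaps were set with the profile in view. The members, sites and alternatives were chosen with earlier results of these data known. Coordinates are 1-based. The reference on GRCm38 was used for gene lengths, neighbours and coding sequence only, and no coordinate was converted.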

Additional observations from a re-analysis of the deposited data

Results flagged for a closer look

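The plus strand of the Ttn interval, which the comparisons above do not use, carried a signal above the 3 cDNAs that a count of 0 allows: 12 cDNAs in replicate 1, 53 in replicate 2 and 88 in the merged track. It was spread over 12, 52 and 87 positions, and no nucleotide held more than 2. Most of it lay toward the 3′ end of Ttn. Of the 285 kb, the 120 kb nearest the 3′ edge, up to 76660000, held 10, 44 and 75 of these cDNAs. The rest of the interval held 2, 9 and 13. This limit was not fixed beforehand, and the counts are small. GENCODE M21 lists a plus-strand antisense gene, Gm13938, that overlaps Ttn, but it could not be placed on mm9, and whether the signal comes from it was not tested.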

How the results depend on the processing

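Of 33 alternative settings over 9 results, 23 kept the main result by the following rule. A tested result stayed on its side of the threshold, a count within 1.5 times, or another value within 1 SD or its counting interval. With 2 replicates, leaving 1 out always keeps a mean within 1 SD, so for means those settings were kept by construction. Direction was examined only for the ratio between the replicates, and it did not reverse. The log2 ratio of replicate 1 to replicate 2 in Ttn was 0.08 to 0.20, and the empty bins of 1 kb numbered 7 to 9. The mean share of Ttn, 12507 CPM, became 13076 CPM without the mitochondrial chromosome, the unplaced sequences and the 10 strongest windows in the denominator, and 11609 CPM with each position counted once, and it was 12178 to 12836 CPM without either replicate. The share in the 10% densest bins, 25.6%, became 26.0% with bins of 500 nt, 25.4% with bins of 2 kb and 24.0% with each position counted once. With each position counted once, 1 window of 10 kb differed between the replicates instead of 0, and the cause was not tested. In that setting 14 of the 29 windows had an unadjusted p under 0.05 (exact binomial test), instead of 5. Recurrence of replicate 1 positions, 25.1%, became 78.8% within 5 nt, 89.5% within 10 nt and 44.8% for positions with at least 2 cDNAs. At each single distance from 101 to 200 nt, on average 11.6% of replicate 1 positions had a replicate 2 position. A wider limit thus raises the share by density alone. The shares within 5 nt and 10 nt were not compared with a chance level and do not measure agreement of sites. Bins of 500 nt without a cDNA numbered 20. No paired analysis was possible because the heart samples, whose labels share replicate numbers, are not analysed here and the iCLIP samples form 1 group. Depth limits what single nucleotides show, since none held more than 6 cDNAs in replicate 1.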
